A study of Mus musculus with 7 samples.

Results

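The endothelial cells of an islet line a dense bed of fenestrated capillaries that carries glucose to the β-cells and insulin away from them. These cells were read here through 32 genes, chosen by symbol as endothelial receptors, junction and surface proteins, transcription factors and secreted proteins. All 32 were found among the 49315 mouse genes of the count files. Islet RNA of 7-day-old mice was depleted of ribosomal RNA and sequenced in 7 pools, each made from 5 animals. The control group held 3 pools of Nrf2lox/lox mice (numbers 1, 2 and 4), whose gene for the transcription factor Nrf2 carries loxP sites. The βNrf2KO group held 4 pools (numbers 1, 2, 3 and 4) of mice with a β-cell specific Nrf2 deletion. The sources used here do not give the promoter that drives Cre, the strain or the sex, and endothelial cells are not the labelled target of the deletion.

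β-cells attract vessels by releasing the growth factor VEGF-A, which acts on the receptors VEGFR2 (Kdr) and VEGFR1 (Flt1). Angiopoietins act on a second receptor, TIE2 (Tek), and steady the vessel wall. Transcription factors of the ETS family (Erg, Fli1) and of the SOX F group (Sox7, Sox17, Sox18) hold endothelial identity, and VE-cadherin (Cdh5), claudin-5 (Cldn5) and PECAM-1 join the cells to each other.

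Depth ran from 18187382 to 25373105 counts per pool. The mitochondrial genome took between 10.02% and 51.8% of them, most in control pools 1 and 2. Levels are therefore given as CPM, counts scaled to a common library size with TMM factors, or as CPM per kb of exon where genes are compared with each other. The Cre recombinase sequence had 23 to 73 counts in each βNrf2KO pool and 0 in each control pool. Nfe2l2, the gene of Nrf2, was read at 86.0, 43.2 and 48.4 CPM in control pools 1, 2 and 4 and at 66.8, 57.8, 67.3 and 58.6 CPM in βNrf2KO pools 1 to 4, and differed by 0.08 ± 0.23 (log2 fold change ± SE, edgeR adjusted p = 0.911). The count of the whole gene was thus not lower in the pools labelled βNrf2KO. It takes in exons outside a deleted part and RNA of every cell in the islet, so it does not check the deletion.

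ETS and SOX factors bind short DNA motifs, so the DNA before the start of the members was read for such letters. RefSeq (GRCm38.p6) gave a start for 15 of the 32 genes, in 19 windows of the 250 bases before it. The ETS motif CAGGAAG, on either strand, was in 7 of the 19 windows (36.8%, of Cd34, Egfl7, Emcn, Erg, Rasip1 and Robo4) and in 10.8% of all 32851 windows. The other ETS motif searched, CCGGAAG, was in 0 of the 19 and in 6.91% of all windows, the SOX motif AACAAT in 3 (15.8%, against 9.42%) and the GATA motif AGATAA in 1 (5.26%, against 9.99%). These 7 windows belong to 6 genes, and no 2 matches overlapped in a member's window. A match is a description of letters, not of a bound site. The windows below are those of Eng, the most abundant member with an entry, of Esm1, whose pools did not overlap between genotypes, and of Erg at the start nearest its 3′ end, the 1 window with ETS, SOX and GATA letters together. Capitals mark the motif matches, each window runs 5′ to 3′ on the gene's strand, and no exon of the count files lies in them. They are chr2:32646345-32646594 (plus strand), chr13:113209409-113209658 (plus strand) and chr16:95459349-95459598 (minus strand).
Eng: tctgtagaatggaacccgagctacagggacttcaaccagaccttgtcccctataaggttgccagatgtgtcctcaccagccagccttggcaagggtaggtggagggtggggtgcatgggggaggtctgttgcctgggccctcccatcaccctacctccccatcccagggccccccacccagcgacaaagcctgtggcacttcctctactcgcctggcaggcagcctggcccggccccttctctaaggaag
Esm1: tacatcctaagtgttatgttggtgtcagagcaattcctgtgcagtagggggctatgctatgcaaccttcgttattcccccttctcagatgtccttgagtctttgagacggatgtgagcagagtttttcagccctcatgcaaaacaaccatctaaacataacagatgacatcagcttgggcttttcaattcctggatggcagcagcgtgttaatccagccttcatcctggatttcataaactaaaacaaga
Erg: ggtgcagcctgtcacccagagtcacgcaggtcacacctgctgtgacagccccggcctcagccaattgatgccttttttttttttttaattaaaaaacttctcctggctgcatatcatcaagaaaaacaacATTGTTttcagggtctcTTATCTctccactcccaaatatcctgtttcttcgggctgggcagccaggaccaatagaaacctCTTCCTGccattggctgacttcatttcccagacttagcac

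The labelled tissue holds endothelium in every pool. Each of the 32 genes had at least 64 counts in each pool (the lowest in Gpihbp1) and up to 8503 (in Cdh5). Mean levels over the 7 pools spanned 50.2-fold, from 73.9 CPM per kb for Cdh5 to 1.47 CPM per kb for Vwf, the platelet-binding factor that large vessels store, with a median of 12.1 CPM per kb. After Cdh5 came Plvap, the protein of the fenestral diaphragm (64.9 CPM per kb), and Eng, endoglin, a co-receptor of the TGF-β family (58.7 CPM per kb). Pecam1 (43.0 CPM per kb) and Podxl, a sialomucin of the luminal surface (32.9 CPM per kb), followed. Claudin-5 was low by comparison, at 4.76 CPM per kb.

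**Figure D1:**
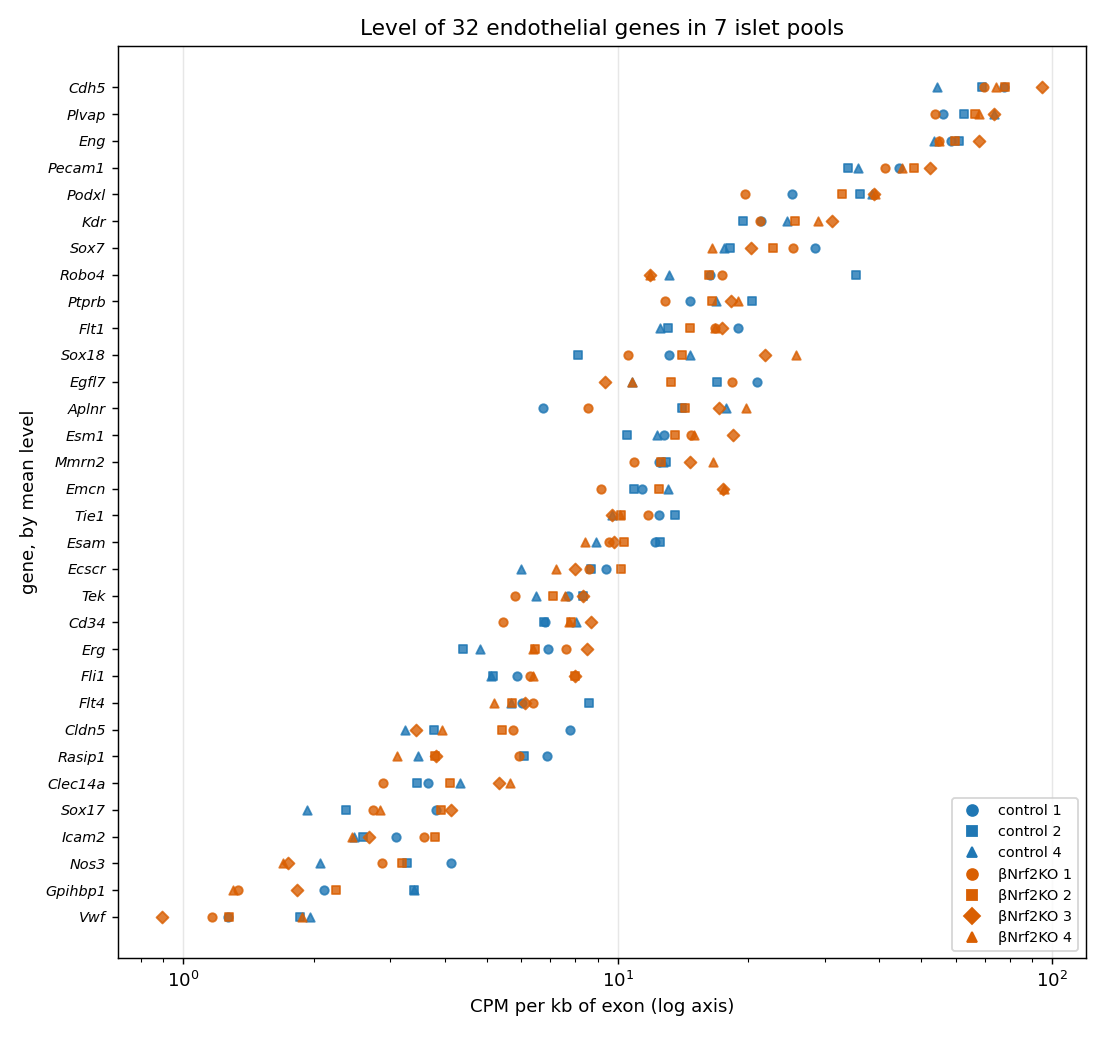
Level of each of the 32 endothelial genes in CPM per kb of exon on a log axis, 1 symbol per pool, blue for the 3 control and orange for the 4 βNrf2KO pools, with genes ordered by their mean. Cdh5, Plvap and Eng lead, Vwf is lowest, and the colours mix in nearly every row.

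The summed level of the 32 genes was steady across pools. It was 2562, 2589.9 and 2370.2 CPM in control pools 1, 2 and 4 and 2335, 2627, 2937 and 2705 CPM in βNrf2KO pools 1, 2, 3 and 4. The means were 2507 ± 119.5 CPM (SD, n = 3) and 2651 ± 249 CPM (SD, n = 4), the groups overlapped, and the highest pool stood 1.26-fold above the lowest. The same ratio was 3.07 for 10 pericyte and smooth muscle markers, 3.42 for 6 fibroblast markers and 8.36 for 10 acinar markers. It was 1.23 for VEGF ligands and co-receptors, 1.27 for BMP and TGF-β genes and 1.82 for 7 ductal markers. A steady sum was thus not particular to the members. Single members varied more than their sum, from 1.27-fold (Eng) to 3.17-fold (Sox18), with a median of 1.73. In bulk RNA, fewer cells of a type and less RNA per cell cannot be told apart.

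**Figure D2:**
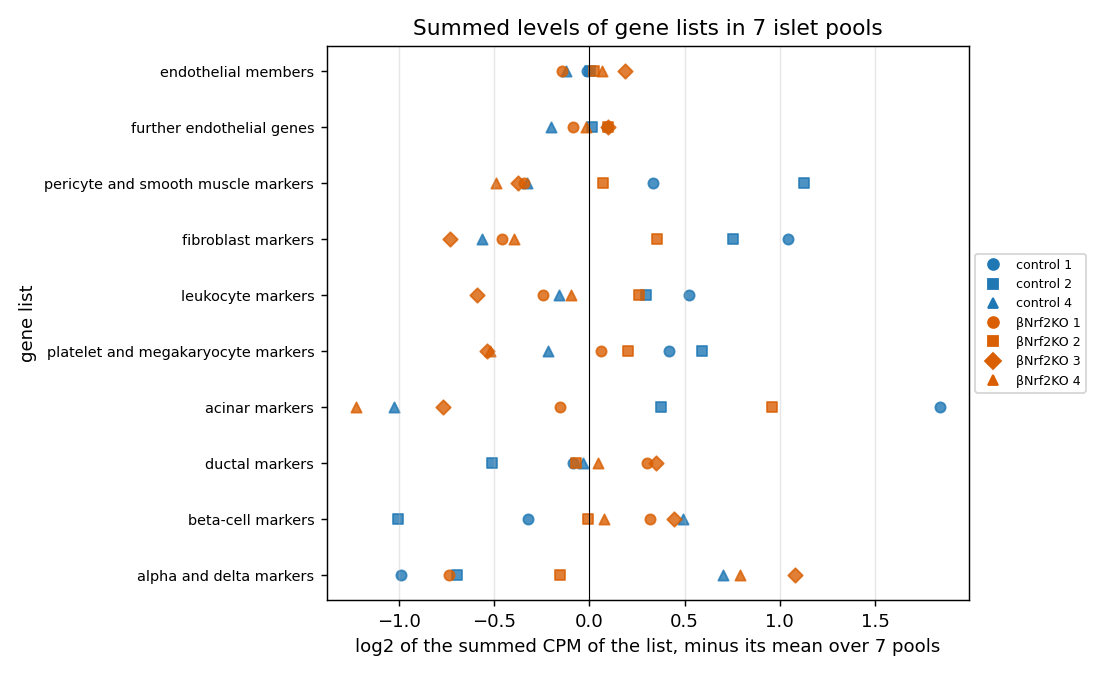
Summed CPM of gene lists in each pool, as log2 minus the list's mean over the 7 pools, with blue for control and orange for βNrf2KO pools. Both endothelial lists lie within a narrow band, while pericyte, fibroblast, acinar and alpha and delta lists spread widely and do so within the control group too.

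The comparison of βNrf2KO with control islets asks whether the vascular genes differ where a β-cell deletion of Nrf2 is labelled. Cre was read in every βNrf2KO pool and in no control pool, so Cre and the deletion cannot be told apart. None of the 32 genes passed the threshold. In edgeR's quasi-likelihood fit, adjusted by Benjamini-Hochberg over 19893 genes, 0 of 32 members had an adjusted p under 0.05, as did 0% of all tested genes, and the members' adjusted p ran from 0.571 to 0.993. DESeq2 called 2 genes and edgeR with the pool number as a block called 14, with 0 members among either. Values were higher in βNrf2KO for 18 members and lower for 14. Their median log2 fold change was 0.04, and that of all genes -0.01. At unadjusted p under 0.05 stood 3 members (9.38%), beside 8.46% of all genes, a share near this background. Fli1 and Esm1 were higher (6.25%, background 3.23%) and Gpihbp1 was lower (1 of 32, background 5.23%). Fli1 and Esm1 were also the 2 members whose groups did not overlap (6.25%, against 6.99% of all genes, of which 3.19% were higher and 3.8% lower in βNrf2KO).

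The precision limits what can be said of each gene. Standard errors on the log2 scale ran from 0.15 (Eng) to 0.33 (Aplnr). The 95% interval lay between -1 and 1 for 28 of 32 members and passed these bounds for Robo4, Sox18, Nos3 and Gpihbp1. With 3 and 4 pools small differences were not detectable, and the intervals are not a limit above which a difference is called. Gpihbp1, at -0.82 ± 0.28 with an interval of -1.44 to -0.21, did not pass the adjusted threshold (edgeR, adjusted p = 0.571).

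**Figure D3:**
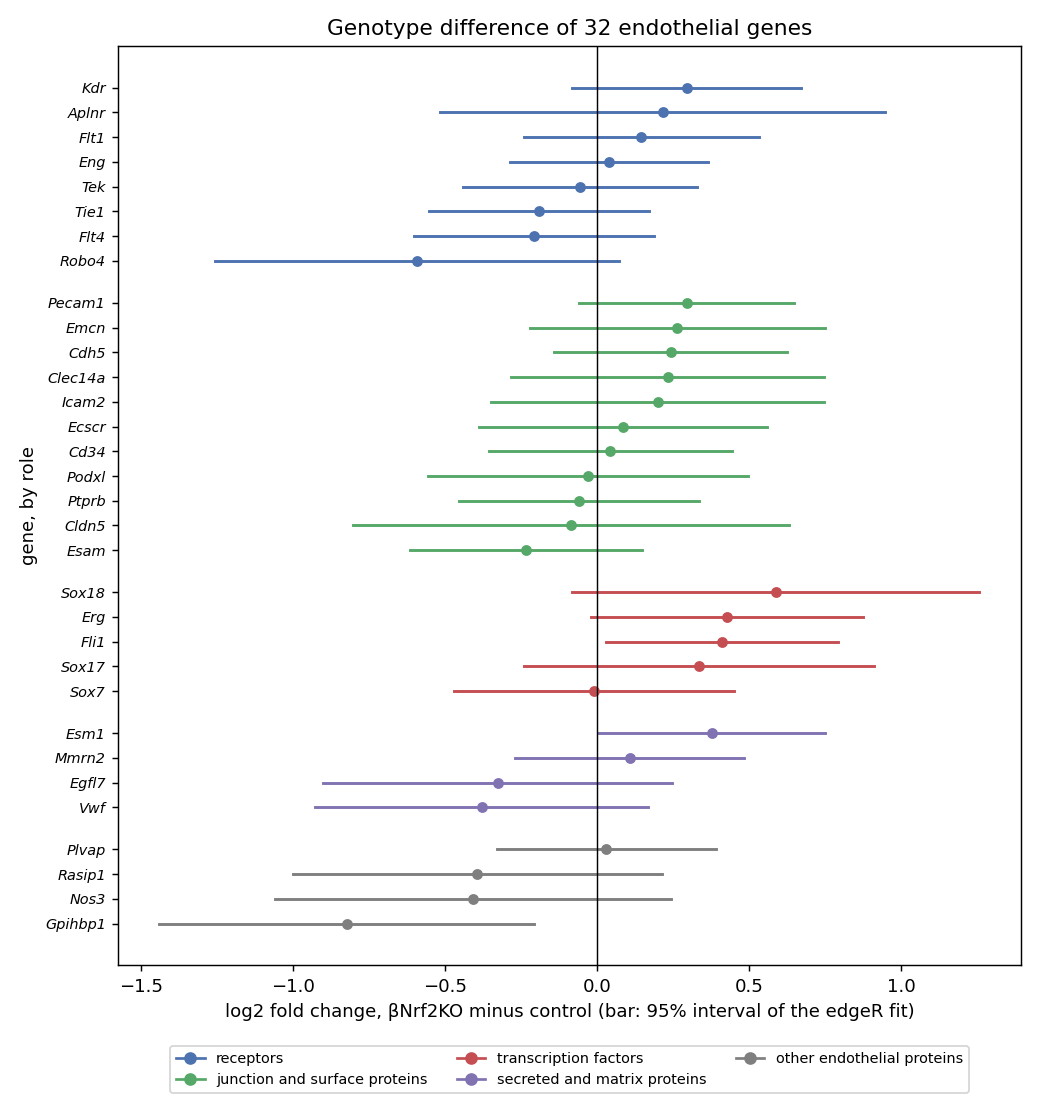
Log2 fold change (βNrf2KO minus control) of each member with the 95% interval of the edgeR fit over 3 control and 4 βNrf2KO pools, coloured by role. The intervals of Fli1, Esm1 and Gpihbp1 alone leave out 0, and none of the 32 passed the adjusted threshold.

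Among the receptors 4 of 8 were higher and 4 lower. Their log2 fold changes had a median of -0.01, with 0 members at unadjusted p under 0.05. Kdr, the main signalling receptor for VEGF-A (chromosome 5, 75932827 to 75978458, GRCm38), was read at 193, 176 and 222 CPM in control pools 1, 2 and 4. In βNrf2KO pools 1, 2, 3 and 4 it was read at 192, 232, 282 and 261 CPM. βNrf2KO pools 2, 3 and 4 stood above every control pool, and pool 1 lay among them, so the groups overlapped. The log2 fold change was 0.30 ± 0.17 (SE), with an interval of -0.08 to 0.67 (edgeR, adjusted p = 0.591).

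Flt1, a decoy as well as a receptor for VEGF-A, was read at 256, 176 and 169 CPM in the control pools and at 227, 198, 235 and 227 CPM in the βNrf2KO pools. Control pool 1 was the highest of all 7 and control pool 4 the lowest, and the difference was 0.15 ± 0.18. Tek, the angiopoietin receptor, was read at 36.2, 39.2 and 30.5 CPM in control and 27.3, 33.6, 39.3 and 35.7 CPM in βNrf2KO pools, a difference of -0.06 ± 0.18 with full overlap. Eng was the steadiest member, with a highest pool 1.27-fold above the lowest. It was read at 237, 247 and 217 CPM in control and 222, 242, 275 and 222 CPM in βNrf2KO pools, and differed by 0.04 ± 0.15. These 3 receptors showed no separation of the genotypes.

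The remaining receptors were the orphan TIE2 partner Tie1 (-0.19 ± 0.17), the lymphatic and capillary VEGF-C receptor Flt4 (-0.21 ± 0.18) and the apelin receptor Aplnr (0.22 ± 0.33). Robo4, an endothelial roundabout receptor, had the lowest value among receptors, -0.59 ± 0.30 (edgeR, adjusted p = 0.571). It was read at 86.5, 188 and 69.7 CPM in control and at 92.2, 86.1, 62.8 and 63.1 CPM in βNrf2KO pools. Control pool 2 stood far above the other 6, and without it the difference was -0.04.

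Of 11 junction and surface proteins 7 were higher and 4 lower, with a median of 0.09 and 0 at unadjusted p under 0.05. Cdh5, VE-cadherin, the adherens junction protein of endothelium (chromosome 8, 104101625 to 104144511), was read at 326, 289 and 228 CPM in the control pools. It was read at 293, 328, 397 and 312 CPM in the βNrf2KO pools. βNrf2KO pool 3 was highest and control pool 4 lowest, with overlap between, and the difference was 0.24 ± 0.18 (edgeR, adjusted p = 0.644). Pecam1, which also marks platelets and leukocytes, was read at 277, 211 and 222 CPM in control and 256, 299, 326 and 281 CPM in βNrf2KO pools. Control pools 2 and 4 lay below all others, and the difference was 0.30 ± 0.16 (edgeR, adjusted p = 0.585).

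Podxl was read at 138, 198 and 211 CPM in control and at 108, 181, 213 and 214 CPM in βNrf2KO pools, low in pool 1 of both genotypes (-0.03 ± 0.24). The sialomucin Emcn, a marker of capillaries and veins, differed by 0.26 ± 0.22, and the lectin-like Clec14a by 0.23 ± 0.24. The adhesion molecule Icam2 differed by 0.20 ± 0.25, the surface regulator Ecscr by 0.09 ± 0.22 and the sialomucin Cd34 by 0.04 ± 0.18. The phosphatase Ptprb, which restrains TIE2, differed by -0.06 ± 0.18, Cldn5 by -0.09 ± 0.33 and the adhesion molecule Esam by -0.23 ± 0.17. The values of this group lay within 0.30 of 0 on the log2 scale, on either side.

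Of the 5 transcription factors 4 were higher, with a median of 0.41. At unadjusted p under 0.05 by edgeR stood 1 of them, higher, beside 3.23% of all genes in that direction. Fli1 (chromosome 9, 32422204 to 32542861), an ETS factor of endothelium and blood cells, was read at 20.4, 18.0 and 17.8 CPM in the control pools. It was read at 21.9, 27.8, 27.8 and 22.2 CPM in the βNrf2KO pools. Every βNrf2KO pool stood above every control pool, pool 1 by little. The difference was 0.41 ± 0.17 with an interval of 0.03 to 0.79 (edgeR, unadjusted p = 0.0366, adjusted p = 0.571). Erg, its close relative, was read at 24.0, 15.3 and 16.7 CPM in control and 26.3, 22.4, 29.5 and 22.2 CPM in βNrf2KO pools, with control pool 1 inside the βNrf2KO range (0.43 ± 0.20, edgeR adjusted p = 0.571), and without that pool the difference was 0.65.

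The SOX F factors gave unlike values. Sox18 had the highest fold change of the 32 members, 0.59 ± 0.31 (edgeR, adjusted p = 0.571). It was read at 21.3, 13.1 and 23.8 CPM in control and 17.2, 22.8, 35.3 and 41.6 CPM in βNrf2KO pools, highest in βNrf2KO pools 3 and 4 and lowest in control pool 2. Without βNrf2KO pool 4 or without control pool 2 the difference was 0.37. Sox17, which marks arterial endothelium, was read at 18.2, 11.3 and 9.19 CPM in control and 13.0, 18.7, 19.8 and 13.5 CPM in βNrf2KO pools (0.34 ± 0.26). Sox7 was highest in pool 1 of both genotypes, at 93.8, 59.7 and 58.0 CPM in control and 83.5, 75.1, 67.0 and 54.5 CPM in βNrf2KO pools (-0.01 ± 0.21). Per kb of exon Sox7 stood above Sox18 in 5 of the 7 pools, and below it in βNrf2KO pools 3 and 4, where the ratio of Sox18 to Sox7 was 1.07 and 1.55 against 0.418 to 0.834 in the others. The ratio was chosen after the values were seen and was not tested.

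Esm1, endocan, a secreted proteoglycan made by endothelium under VEGF (chromosome 13, 113209659 to 113218098), was read at 26.8, 22.1 and 25.9 CPM in the control pools. It was read at 30.9, 28.5, 38.6 and 31.5 CPM in the βNrf2KO pools, each above each control pool. The difference was 0.38 ± 0.17 with an interval of 0.00 to 0.75 (edgeR, unadjusted p = 0.0481, adjusted p = 0.571). Left out 1 at a time, the pools gave values from 0.28 to 0.43. The other secreted and matrix genes were Mmrn2, a matrix protein of the vessel wall (0.11 ± 0.17), Egfl7, an endothelial matrix factor (-0.33 ± 0.26), and Vwf (-0.38 ± 0.25).

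Vwf is also made by megakaryocytes, so the markers of that lineage are given beside it. The summed level of 9 platelet and megakaryocyte markers was 22.6 to 39.4 CPM in control and 18.0 to 30.1 CPM in βNrf2KO pools. Of 8 tested 6 were lower, with a median of -0.76 and 2 at unadjusted p under 0.05, both lower (5.23% of all genes), and none of the 9 was at 0 in all pools. Vwf was read at 20.4, 29.9 and 31.5 CPM in control and 18.7, 20.5, 14.4 and 30.2 CPM in βNrf2KO pools. Its order over the pools was only in part that of the platelet sum. Pool 4 of both genotypes had the highest Vwf with platelet sums of 22.6 and 18.2 CPM, and control pool 1 had low Vwf with a sum of 35.1 CPM. βNrf2KO pool 3 was lowest in both Vwf and the sum. Control pool 2 had the highest sum, 39.4 CPM, with Vwf at 29.9 CPM. The 10 leukocyte markers summed to 52.7 to 84.6 CPM in control and 39.1 to 70.5 CPM in βNrf2KO pools, with overlap. The part of either cell type in these values was not tested.

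Gpihbp1 had the lowest fold change of all members. It encodes the protein with which capillary endothelium holds lipoprotein lipase (chromosome 15, 75596628 to 75599481). Its level was 5.39, 8.70 and 8.69 CPM in the control pools and 3.42, 5.75, 4.68 and 3.34 CPM in the βNrf2KO pools. Control pools 2 and 4 stood above all others, and control pool 1 fell between βNrf2KO pools 3 and 2. The group means were 7.59 ± 1.91 CPM (SD, n = 3) and 4.30 ± 1.15 CPM (SD, n = 4). The difference was -0.82 ± 0.28 with an interval of -1.44 to -0.21 (edgeR, unadjusted p = 0.0131, adjusted p = 0.571), and it ran from -1.02 to -0.71 when each pool was left out. Its counts were among the lowest of the members.

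The other members of that group were Plvap, read at 112, 125 and 146 CPM in control and 107, 132, 146 and 135 CPM in βNrf2KO pools (0.03 ± 0.16), the nitric oxide synthase Nos3 (-0.41 ± 0.30) and Rasip1, a Ras-interacting protein of vessel lumen formation (-0.39 ± 0.28). Without control pool 1 the differences of Nos3 and Rasip1 were -0.16 and -0.19, and that of Egfl7 -0.10. The fenestral protein overlapped fully between genotypes. Some members share exon bases with other genes, so their counts are less certain. On opposite strands this depends on the strand setting, which is not given, and on the same strand it does not. For Nos3 25.2% of its exon bases lie in the antisense gene Gm15587 and for Sox17 16.9% in the antisense gene Gm37587. For Rasip1 20.4% lie in Izumo1, on the same strand.

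Part of the variation between pools 1 and 4 was common to both genotypes. In pool 4 against pool 1, 11 members were higher in both genotypes and 14 lower in both, while 7 went opposite ways. Over all genes tested these shares were 34.1%, 34.9% and 31.1%, against 34.4%, 43.8% and 21.9% of the members. Aplnr was read at 25.0, 52.1 and 65.6 CPM in control and 31.6, 53.0, 63.4 and 73.1 CPM in βNrf2KO pools, a ratio of pool 4 to pool 1 of 2.63 in control and 2.31 in βNrf2KO. For Podxl these ratios were 1.53 and 1.99, and for Vwf 1.54 and 1.61. Egfl7 had the reverse order, at 74.9, 60.7 and 38.7 CPM in control and 65.7, 47.4, 33.5 and 38.6 CPM in βNrf2KO pools, with ratios of 0.517 and 0.587. Rasip1 (0.504 and 0.523) and Nos3 (0.501 and 0.591) were alike. The values of all members were known when these examples were picked. The members thus did not all vary together. The median correlation of 2 members over the 7 pools was r = 0.11 on log2 CPM, and 282 of 496 pairs were positive. Cdh5 followed the mean of the other members most closely (r = 0.79), and Vwf ran against it (r = -0.56). All members share the 7 libraries, so these values are descriptive.

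**Figure D4:**
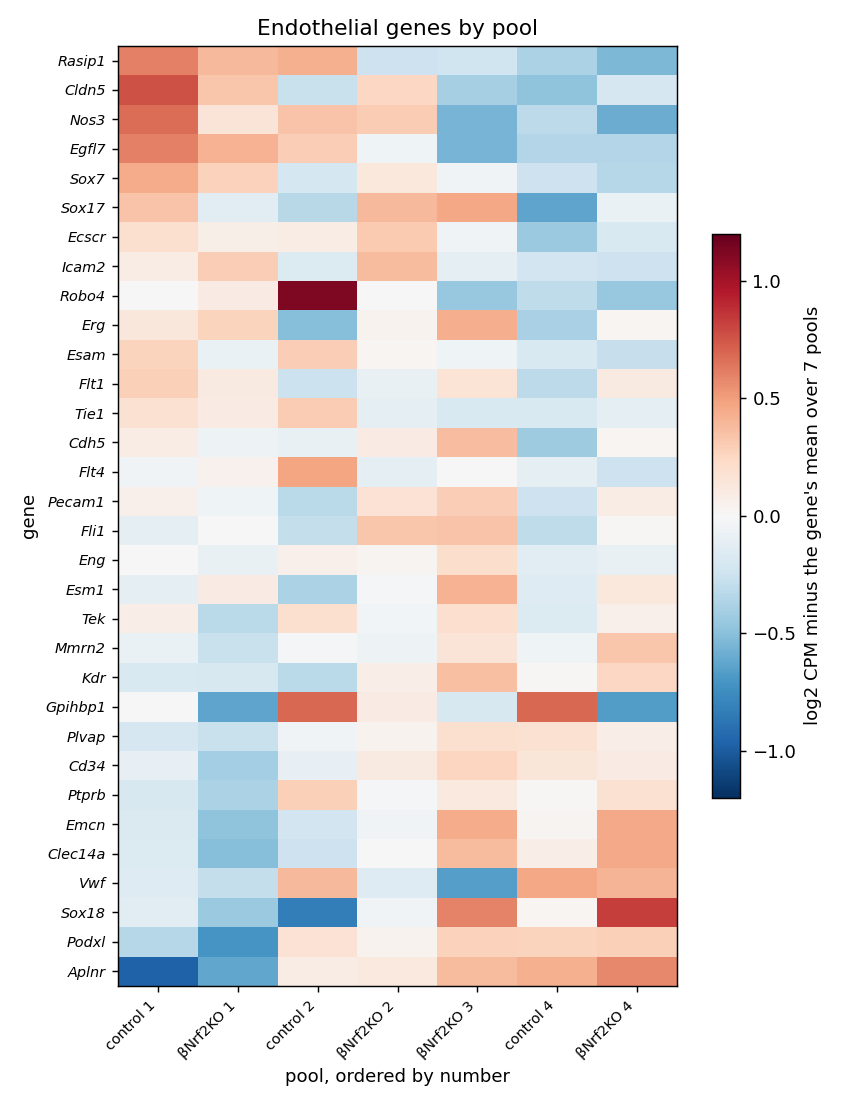
Log2 CPM of each member minus its mean over the 7 pools, with pools placed by their number and genes ordered by the difference of pools 4 from pools 1. Rasip1, Cldn5 and Egfl7 are high in pool 1 of both genotypes, where Aplnr and Podxl are low. Nos3 is high in control pool 1 and nearer its mean in βNrf2KO pool 1. Robo4 is high in control pool 2 alone.

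Within the numbered pairs the genotype difference changed sign. In pair 1, 25 of the 32 members were lower in the βNrf2KO pool (median -0.17), while in pairs 2 and 4 there were 18 and 20 higher (medians 0.13 and 0.16). Over all genes tested, median log2 CPM minus each gene's mean was 0.02 and 0.01 in pools 1 of control and βNrf2KO. It was -0.02 and 0.01 in pools 2, and 0.01 and 0.02 in pools 4. The shares of all genes higher or lower within each single pair were not read. Aplnr, Esm1, Erg and Fli1 were higher in all 3 pairs, 12.5% of members against 19.1% of all genes. Egfl7, Esam, Rasip1, Nos3, Gpihbp1 and Vwf were lower in all 3, 18.8% against 17.9%. βNrf2KO pool 3 has no control pool of its number, so the genotype difference with the pool number as a block rests on pairs 1, 2 and 4. In that fit 1 of 32 members was at unadjusted p under 0.05, beside 12.1% of all genes. It was Gpihbp1 (-0.88 ± 0.25, edgeR adjusted p = 0.269), while Fli1 was 0.35 and Esm1 0.29 (unadjusted p = 0.0743 and 0.101 by edgeR).

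GC content of the transcripts moved with the genotype difference. Members with lower values in βNrf2KO had a median GC of 55.7%, and those with higher values 50.7%. The correlation of GC with the log2 fold change was r = -0.42 across the 32 members and r = -0.26 across 19831 genes. Across the 12210 of these genes with a log2 CPM above 2 it was r = -0.33. Genes are not independent replicates. With a correction for GC in each pool, Esm1 was 0.24 and Fli1 0.29 (edgeR unadjusted p = 0.139 and 0.106), Gpihbp1 -0.77 and Sox18 0.79. With that correction and the block together Esm1 was 0.17.

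The ligands that act on these receptors were read from the same fit. Vegfa, released by β-cells, was at 344, 257 and 266 CPM in control and 329.7, 316, 369 and 336 CPM in βNrf2KO pools (0.22 ± 0.16, edgeR adjusted p = 0.641), with control pool 1 inside the βNrf2KO range. Vegfc, the ligand of Flt4, was at 3.97, 3.89 and 4.55 CPM in control and 2.51, 3.55, 2.86 and 2.83 CPM in βNrf2KO pools. Its groups did not overlap (-0.50 ± 0.26, edgeR adjusted p = 0.571). Of 7 genes of VEGF ligands and co-receptors 2 were higher and 5 lower (median -0.13), with 0 at unadjusted p under 0.05.

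Among angiopoietins and their regulators 2 of 6 were higher, with 0 at unadjusted p under 0.05. Angpt1, the TIE2 agonist of mural cells, was low throughout, at 2.06 to 4.81 CPM in control and 1.31 to 3.63 CPM in βNrf2KO pools (-0.73 ± 0.41), Angpt2, its antagonist, differed by 0.29 ± 0.27 (0.057 to 0.69 when each pool was left out), and Foxo1, which drives Angpt2, by 0.23 ± 0.17. Apln, the ligand of Aplnr, differed by -0.03 ± 0.35. In its list of 4 tested genes the chemokine receptor Cxcr4 differed by 1.05 ± 0.49, where control pool 1 (41.6 CPM) lay among the βNrf2KO pools (35.2 to 53.3 CPM) and the other control pools far lower. Without control pool 1 the difference was 2.05 and without control pool 2 it was 0.67. Its partner receptor Ackr3 differed by 0.37 ± 0.26.

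Of 12 genes of Notch and ephrin signalling 9 were lower, with a median of -0.18 and 2 at unadjusted p under 0.05, both lower, beside 5.23% of all genes. Jag1, a Notch ligand, was at 37.6, 38.6 and 25.7 CPM in control and 23.5, 24.9, 21.7 and 22.8 CPM in βNrf2KO pools, without overlap (-0.55 ± 0.18, edgeR adjusted p = 0.571). The arterial Notch target Hey2 differed by -0.64 ± 0.28, and without control pool 2 by -0.38. Dll4, the Notch ligand of sprouting tip cells, differed by 0.15 ± 0.18. Of 10 genes of BMP and TGF-β signalling 4 were higher and 6 lower with 0 at unadjusted p under 0.05, among them the BMP target Id1 (-0.42 ± 0.23) and the receptor Bmpr2 (0.25 ± 0.18).

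A second list of 27 tested endothelial genes, none of them members, had 15 higher and 12 lower with a median of 0.08. At unadjusted p under 0.05 stood 2, both higher, beside 3.23% of all genes. Adgrl4, an adhesion receptor of sprouting endothelium, was at 57.7, 29.7 and 39.5 CPM in control and 60.9, 66.0, 91.0 and 61.2 CPM in βNrf2KO pools, without overlap but with control pool 1 close below (0.72 ± 0.24, edgeR adjusted p = 0.571). Tal1, a factor of endothelial and blood progenitors, differed by 0.67 ± 0.29. The summed level of the list was 1655 to 2027 CPM in control and 1794 to 2040.4 CPM in βNrf2KO pools.

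Markers of cells around the vessels had lower values in the same comparison, as had those of several other cell types. Lower in βNrf2KO were 6 of 6 fibroblast, 8 of 8 tested acinar, 5 of 5 mesothelial, 8 of 10 leukocyte and 5 of 7 erythroid markers. Higher were 8 of 10 β-cell, 5 of 7 ductal and 5 of 7 alpha and delta markers. Of 10 pericyte and smooth muscle markers 10 were lower in βNrf2KO, with a median of -0.57 and 5 at unadjusted p under 0.05, beside 5.23% of all genes in that direction, although none passed the adjusted threshold by edgeR. Pdgfrb, the receptor that recruits pericytes to endothelium, was at 121, 208 and 94.6 CPM in control and 79.0, 122, 93.1 and 90.3 CPM in βNrf2KO pools (-0.55 ± 0.25, edgeR adjusted p = 0.571), and without control pool 2 the difference was -0.16. The summed level of this list was 1577 ± 789 CPM (SD, n = 3) and 926 ± 168 CPM (SD, n = 4), and control pool 2 alone reached 2438 CPM. Whether endothelial and mural lists differ in their response was not tested.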

How the data were processed

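The authors deposited raw counts per gene and an exon length for each. The submitters' processing notes name featureCounts from Subread 1.5.2, STAR 2.5.2b, Trimmomatic 0.36 and bcl2fastq 2.20. The sources used here give neither the strand setting nor the annotation release. GRCm39 is the build in the notes, but 91.4% of 49056 shared gene IDs had the GENCODE M21 (GRCm38) start and end, as did 27 of the 32 members, so coordinates are GRCm38. Library sizes did not include the Cre entry. Symbols came from the reference table (48970 of 49315 IDs).

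Counts were tested with edgeR 4.0.16 in R 4.3.3 (TMM, filterByExpr, robust quasi-likelihood fit, two-sided, Benjamini-Hochberg over 19893 genes, threshold 0.05). Fold changes are βNrf2KO minus control with SE. Alternatives used DESeq2 1.42.0, limma 3.58.1, other scalings and filters, an acinar covariate, the pool number as a block and leaving out each pool. A GC correction (lowess on the longest transcript) was added after seeing the data. CPM use TMM-scaled library sizes. p-values measure the spread between pools, each of 5 animals.

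Pools of the same number correlated after removal of group means (r = 0.376, 0.229 and 0.323 for numbers 1, 2 and 4). Control pool 4 and βNrf2KO pool 3, of unlike number, did so too (r = 0.241), and the remaining combinations were negative. Deviations from a group mean cancel within the group, so positive values for some combinations force negative values for others. The numbers were taken as pairs only in the counts by pair and in the block fit, and the main fit did not use them. In the block fit βNrf2KO pool 3, without a control pool of its number, added nothing to the genotype difference. The labels do not say what a number stands for. The members and lists were chosen with earlier results of these data known. Named were all members, with every pool's value for the 5 highest per kb, up to 5 per direction at unadjusted p under 0.05, and Kdr, Flt1, Tek, Cdh5, Erg and Sox17. Of each companion list up to 4 genes with the smallest p could be named, of which 2 are, beside Vegfa, Angpt1, Angpt2, Apln, Dll4 and Pdgfrb. Pool values of other genes were added after they were seen. The lists of other cell types are given by counts and summed levels.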

Additional observations from a re-analysis of the deposited data

How the results depend on the processing

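The depth of 18187382 to 25373105 counts and 3 against 4 pools limit the comparison. A difference as large as the intervals given can still go uncalled. In 18 alternatives, and at a threshold of 0.1, 0 of 32 members passed. For 21 of the 32 members the direction held in all 18, and for 11 it turned in at least 1, of which Emcn (0.26) had the value farthest from 0. The number of genes called was 0, against 2 with DESeq2, 14 with the replicate block, 14 with the block and the GC correction, and 0 to 1 when each pool was left out. The number of genes at unadjusted p under 0.05 was 1683, against 2620 with no filter and 474 to 3446 when each pool was left out (474 without control pool 2, 780 without βNrf2KO pool 3, 820 without βNrf2KO pool 4, 2893 without control pool 1 and 3446 without control pool 4). The number of members at unadjusted p under 0.05 was 3, against 1 with no filter, 1 with the block, 5 with the acinar covariate, 1 with the GC correction, 3 with the block and the GC correction together and 1 to 7 when each pool was left out (1 without control pool 2 or βNrf2KO pool 3, 5 without control pool 4, 6 without control pool 1 and 7 without βNrf2KO pool 1). The cause was not tested.

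Signs turned as follows. With limma-voom Tek was 0.00062, Podxl 0.075 and Ptprb 0.021. With the replicate block Cd34 was -0.053, Eng -0.029, Apln 0.11, Plvap -0.030, Sox7 0.024 and Cldn5 0.11. With the acinar covariate Cd34 was -0.013, Aplnr -0.019, Apln 0.36, Plvap -0.048, Sox7 0.20 and Cldn5 0.31. With the GC correction Cd34 was -0.11 and Cldn5 0.10. With the block and the GC correction Bmpr2 was -0.022, Cd34 -0.18, Apln 0.14, Emcn -0.060, Sox7 0.034 and Cldn5 0.32. When each pool was left out Cd34 ran from -0.039 to 0.15, Eng from -0.029 to 0.080, Aplnr from -0.090 to 0.52, Apln from -0.25 to 0.48, Tek from -0.15 to 0.024 and Pdpn from -2.26 to 0.12. In the same way Podxl ran from -0.19 to 0.13, Ptprb from -0.16 to 0.071, Plvap from -0.056 to 0.14, Sox7 from -0.13 to 0.25, Cldn5 from -0.32 to 0.40 and Ecscr from -0.093 to 0.22. With the block none of the members and named companion genes passed the adjusted threshold.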

Other observations

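Genes of vessel subtypes gave further values. Of 6 arterial genes, Vegfc among them, 5 were lower in βNrf2KO (median -0.45, 1 at unadjusted p under 0.05, lower, beside 5.23% of all genes), among them the gap junction gene Gja4 (-0.73 ± 0.32, edgeR adjusted p = 0.571). Their summed level was 30.9 to 51.3 CPM in control and 24.0 to 37.7 CPM in βNrf2KO pools. Of 6 venous genes 4 were higher (median 0.07), with Selp, the P-selectin of venules and platelets, at 0.71 ± 0.30 (0.46 to 0.91 when each pool was left out). The venous factor Nr2f2 was at -0.57 ± 0.32, and at -0.044 without control pool 2. Of 6 tested lymphatic genes 4 were higher (median 0.07). Lyve1, a receptor of lymphatic vessels and of some macrophages, differed by 0.75 ± 0.30 (0.50 to 1.14 when each pool was left out). Pdpn differed by -1.77 ± 0.80, but control pool 1 stood at 18.7 CPM and the other 6 pools at 1.32 to 3.95 CPM, and without it the value was 0.12. The lymphatic chemokine Ccl21a had 0 counts in all 7 pools, and a count of 0 allows up to 3 counts in a pool.

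All 10 genes of the vascular basement membrane had lower values in βNrf2KO (median -0.09, 0 at unadjusted p under 0.05), led by Lama5 (-0.50 ± 0.23) and Hspg2, perlecan (-0.35 ± 0.20). Control pool 2 was the highest for both, and without it they were at -0.14 and -0.10. Of 10 partners of adherens and tight junctions 8 were higher (median 0.19) and 3 were at unadjusted p under 0.05, beside 3.23% of all genes in that direction. Jam2, a junctional adhesion molecule, differed by 0.63 ± 0.25 and β-catenin, Ctnnb1, by 0.64 ± 0.25 (edgeR, adjusted p = 0.571 for both). When each pool was left out they ran from 0.45 to 1.04 and from 0.37 to 0.89, and these genes are also expressed in epithelium.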
